A study of Gasterosteus aculeatus with 12 samples.

Results

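Kidney gene expression of freshwater (FW) and saltwater (SW) threespine sticklebacks was compared at the same salinity, 33 g/L. Of the 12 RNA-seq libraries of the study, 6 belong to this comparison, 3 of FW33K and 3 of SW33K, and they were chosen by the treatment name and replicate number in their titles. FW33K are wild-caught adult females from a lake in Davis, California, and SW33K are wild-caught adult females from Bodega Bay, California. Both groups were held for 30 days in synthetic sea water of 33 g/L at one temperature and photoperiod, and per the study's methods each library holds the kidneys of 1 fish. No fish carried an engineered allele. Each population was sampled at a single site, and SW fish at a lower salinity were not analysed here, so the population differs between the groups together with everything that differed in the lives of these fish before capture. The other 6 libraries are of Davis fish at 0 g/L (FW00K) and 11 g/L (FW11K). They entered the fits through the shared estimate of the spread, the filter on mean FPKM and the scaling factors described below. Their values are given below as reference levels.

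The kidney of a teleost fish does opposite work in fresh water and in the sea. In fresh water, its glomeruli filter much fluid and its tubules take salt back from a dilute urine. In the sea, little urine is made, and the tubules secrete divalent ions such as magnesium and sulphate, while the gill removes most of the sodium and chloride. Fish kidney also holds the blood-forming tissue of the body, so RNA of granulocytes, lymphocytes and red cell precursors is part of a whole-kidney library. Comparing both populations in the same water asks which genes are expressed at different levels in fish of freshwater and of marine origin.

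Expression was measured as FPKM (fragments per kilobase of exon, scaled to the mapped reads of the library), which is relative to each library's own total. It holds no read counts, so the number of reads behind each gene is unknown. The study lists the reads per library. Among the libraries compared, FW33K replicate 1 had by far the fewest, while SW33K replicate 1 had the most of its group. Of 20860 Ensembl genes, 15503 averaged 1 FPKM or more across the 12 libraries and were tested with limma on log2(FPKM + 1). A difference was called where the Benjamini-Hochberg adjusted p was under 0.01. Differences are given as SW33K minus FW33K on that log2 scale, where the added 1 makes differences of low genes look smaller than they were. The tests were run on the FPKM as deposited and on FPKM divided by a median-ratio factor per library, which sets the typical gene to the same level in every library. Reads of SW fish were aligned with more mismatches allowed than reads of FW fish, so an effect of alignment cannot be told apart from one of population. Gene symbols were known for 1349 of the tested genes, nearly all of them from the study's own list of salt-responsive genes, which was chosen on these same fish. Named genes therefore come from a list that is rich in differences, and calls among them are no independent evidence. A symbol followed by a bracket such as (1 of 2) is one of several gene copies in the stickleback genome, whose reads the estimation could split between copies.

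The libraries did not all resemble their own group equally. Pearson's r of log2(FPKM + 1) across the 15503 genes was 0.991 between replicates 2 and 3 in FW33K and also in SW33K, but 0.938 and 0.945 between FW33K replicate 1 and the other FW33K libraries, and 0.933 and 0.940 between SW33K replicate 1 and the other SW33K libraries. Replicates 2 and 3 were close at high expression too: over 635 genes with at least 100 FPKM, their median absolute log2 ratio after scaling was 0.048 in FW33K and 0.049 in SW33K, against 0.370 to 0.443 between replicate 1 and either of them. Whether they differed by more than sampling noise could not be tested without counts. They were kept as separate fish, and counts with both averaged as 1 sample are given beside the main ones. A few genes took a large part of some libraries: the 5 most abundant genes held 17.5% to 32.8% of the FPKM sum in FW33K, 23.1% in SW33K replicate 1 and 5.17% to 5.29% in SW33K replicates 2 and 3. The median FPKM of tested genes was 4.39 to 6.75 in FW33K, 5.43 in SW33K replicate 1, and 10.6 to 11.0 in SW33K replicates 2 and 3.

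The labelled tissue was visible in each of the 6 libraries compared. The podocyte gene *NPHS1* (nephrin) lay between 3.46 and 16.7 FPKM, and the distal tubule sodium-chloride cotransporter *SLC12A3* between 21.8 and 152 FPKM. Of the germ cell list a single gene was tested, *DDX4*, and it was at most 0.0579 FPKM in the 6 libraries compared. The muscle troponin *TNNI2 (4 of 5)*, 1 of 7 tested muscle genes, was at most 0.127 FPKM in them. The summed level of the 7 muscle genes was 3.3 to 4.84 FPKM in FW33K and 5.97 to 15.1 FPKM in SW33K. Tested genes averaged at least 1 FPKM over the 12 libraries, so *DDX4* and *TNNI2 (4 of 5)* were higher in FW00K or FW11K. Not all markers of other tissues were low. *CPA1*, 1 of 2 tested genes of the pancreas and gut list, was at 23.7, 60.3 and 54.2 FPKM in FW33K and at 8.31, 18.5 and 18.6 FPKM in SW33K. Its means were 310 FPKM in FW00K and 247 FPKM in FW11K, and the tissue it came from was not tested. No gene of the table states the population, so that label could not be checked.

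A small share of the tested genes passed the threshold between the groups, and the side on which most of them lay depended on the scaling. In deposited FPKM, 221 of 15503 genes differed (1.43%): 161 were higher in SW33K (1.04%) and 60 were higher in FW33K (0.387%). After median-ratio scaling, 662 genes differed (4.27%), 237 of them higher in SW33K (1.53%) and 425 higher in FW33K (2.74%). The whole distribution had moved with the scaling. The median difference over all tested genes was 0.47 in deposited FPKM and -0.02 after scaling, and each unscaled difference below is to be read against 0.47. A set of 175 genes (1.13%) passed in both fits in the same direction, 117 higher in SW33K (0.755%) and 58 higher in FW33K (0.374%), and the 3 FW33K libraries did not overlap with the 3 SW33K libraries on either scale in any of the 175. Over all tested genes, 4855 (31.3%) had no overlap in deposited FPKM, with SW33K higher in 4132 (26.7%) and FW33K higher in 723 (4.66%). After scaling there were 6356 such genes (41%), with SW33K higher in 2886 (18.6%) and FW33K higher in 3470 (22.4%), and 3033 (19.6%) had no overlap in the same direction on both scales. Another 46 genes passed in deposited FPKM alone, 44 of them higher in SW33K, and 487 passed after scaling alone, 367 of them higher in FW33K.

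These counts rested on single libraries. Without SW33K replicate 1, 3584 genes (23.1%) differed in deposited FPKM, 3432 of them higher in SW33K (22.1%) and 152 higher in FW33K (0.98%), and 917 (5.91%) after scaling, 366 higher in SW33K (2.36%) and 551 higher in FW33K (3.55%). In deposited FPKM, 133 genes passed without FW33K replicate 1, 7 without FW33K replicate 2, 6 without FW33K replicate 3, 18 without SW33K replicate 2 and 28 without SW33K replicate 3. After scaling, 210 and 202 passed without FW33K replicate 2 or 3, and 183 and 184 without SW33K replicate 2 or 3. With replicates 2 and 3 of each treatment averaged, limma called 2 genes in deposited FPKM (1198 at an unadjusted p under 0.05) and 0 after scaling (1699 at an unadjusted p under 0.05). Of the 175 genes that passed in both fits, 155 did so again without SW33K replicate 1 and 74 without FW33K replicate 1. Without one of FW33K replicates 2 and 3 or SW33K replicates 2 and 3, 6 to 26 did. In fits of only the 6 libraries of the comparison, 5 of the 175 passed both again (5 in deposited FPKM, 105 after scaling). With replicates 2 and 3 averaged, 0 of the 175 passed both. All 175 kept their direction under each of these.

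**Figure D1:**
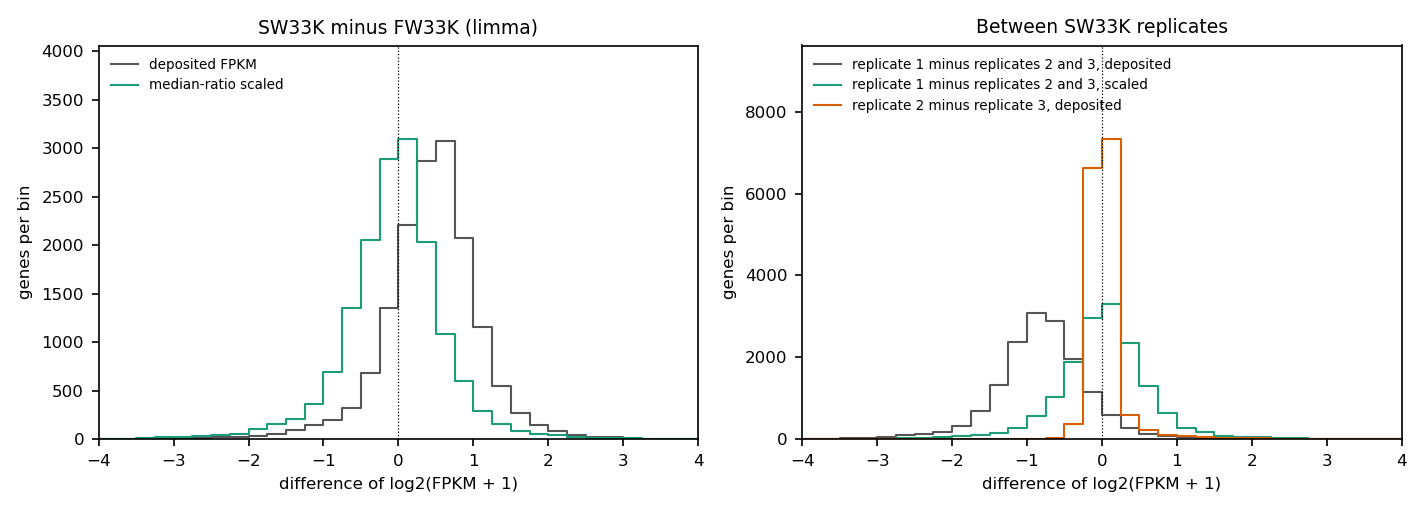
Histograms of log2(FPKM + 1) differences over 15503 genes, in bins of 0.25 (x axis, log2 units; y axis, genes per bin). On the left, SW33K minus FW33K is centred at 0.47 in deposited FPKM (grey) and at -0.02 after median-ratio scaling (green). On the right, SW33K replicate 1 minus the mean of replicates 2 and 3 is centred at -0.79 in deposited FPKM (grey) and at 0.04 after scaling (green), and is wider than replicate 2 minus replicate 3 (orange).

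**Figure D2:**
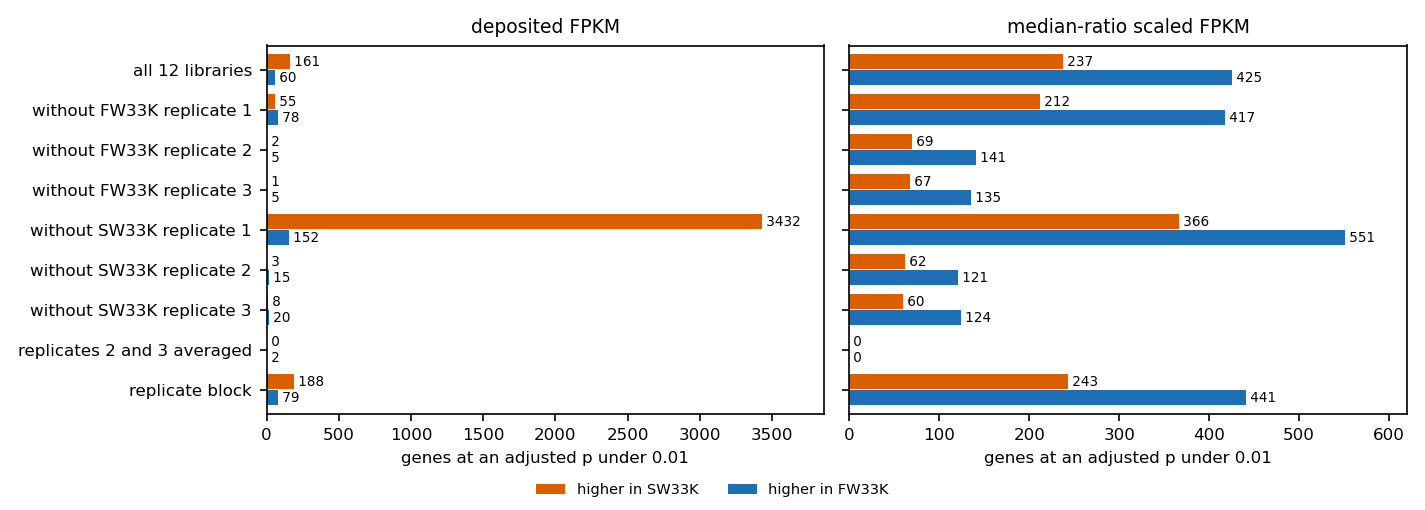
Number of genes at an adjusted p under 0.01 (x axis) in deposited FPKM on the left and after median-ratio scaling on the right, for the fit of 12 libraries and with single libraries left out, replicates 2 and 3 averaged or the replicate number as a block. Orange bars are genes higher in SW33K and blue bars genes higher in FW33K, and both panels have their own axis. Leaving out SW33K replicate 1 raised the deposited count from 161 to 3432 genes higher in SW33K, and averaging left 2 genes in deposited FPKM and 0 after scaling.

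Among genes with a symbol that passed in both fits, 37 were higher in FW33K. The largest difference was that of *HAS2* (ENSGACG00000005603), a hyaluronan synthase of the plasma membrane. *HAS2* was at 273, 646 and 602 FPKM in FW33K replicates 1, 2 and 3, and at 9.08, 1.40 and 1.53 FPKM in SW33K. The groups lay far apart, with SW33K replicate 1 nearest to FW33K. The difference of *HAS2* was -6.91 (standard error 0.50, limma adjusted p = 6.25e-05) in deposited FPKM and -7.49 (limma adjusted p = 1.11e-04) after scaling. *HAS2* passed with replicates 2 and 3 averaged in deposited FPKM (limma adjusted p = 4.67e-04), and not after scaling and averaging (limma adjusted p = 0.0486). Over the other alternatives of both fits its limma adjusted p lay between 1.84e-07 and 0.00945. In the other FW treatments *HAS2* was low, with means of 0.634 FPKM in FW00K and 2.24 FPKM in FW11K.

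*HEPHL1* (ENSGACG00000020605), a copper-dependent ferroxidase, was at 113, 297 and 275 FPKM in FW33K and at 31.1, 8.37 and 8.18 FPKM in SW33K, a difference of -3.91 (standard error 0.59, limma adjusted p = 0.00364). The deposited means of *HEPHL1* in FW00K and FW11K were 20.2 and 24.1 FPKM. Both lay below all FW33K libraries and above SW33K replicates 2 and 3, but below SW33K replicate 1. This placing is given in deposited FPKM alone, and it may differ after scaling. *PDK3* (ENSGACG00000002603), a kinase that switches off pyruvate dehydrogenase, was at 64.7, 70.3 and 65.8 FPKM in FW33K and at 5.14, 9.59 and 9.42 FPKM in SW33K. SW33K replicate 1 was the farthest from FW33K here in deposited FPKM. After scaling it was the nearest, at 9.05 against 8.2 and 8.25 in SW33K replicates 2 and 3. The difference of *PDK3* was -2.95 in deposited FPKM and -3.58 after scaling (limma adjusted p = 0.00147 and 3.19e-04). *TECPR2*, an autophagy protein, was at 117, 338 and 330 FPKM in FW33K and at 24.6, 53.2 and 52.6 FPKM in SW33K (difference -2.49, limma adjusted p = 0.00556).

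Other genes higher in FW33K had lower levels. *SLC5A8*, a sodium-coupled transporter of lactate and other monocarboxylates, was at 19.5, 40.3 and 37.1 FPKM in FW33K against 3.76, 1.01 and 0.754 FPKM in SW33K (difference -3.64). Its mean was 0.281 FPKM in FW00K. *CACNB4 (1 of 2)*, a subunit of voltage-gated calcium channels, was at 7.41, 18.7 and 17.9 FPKM in FW33K against at most 0.254 FPKM in SW33K (difference -3.72). *CNGA3*, a subunit of a cation channel gated by cyclic nucleotides, was at 4.23 to 9.56 FPKM in FW33K and at 0.119 to 0.207 FPKM in SW33K (difference -2.83). The sugar-binding galectin *LGALS1 (3 of 3)*, at 15.3 to 28.6 FPKM in FW33K and 2.42 to 5.01 FPKM in SW33K, differed by -2.51. *TTC9* and *PLEKHB1* differed by -3.03 and -2.78. These 6 genes had limma adjusted p-values between 3.81e-04 and 0.00499 in deposited FPKM and between 2.96e-05 and 0.00126 after scaling.

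One gene met the rule for presence in a single population, under 0.1 FPKM in all 3 libraries of one group and at least 5 FPKM in all 3 of the other. *RASD1 (2 of 2)* (ENSGACG00000011199), a small GTPase that glucocorticoids induce in mammals, was at 6.72, 13.1 and 12.1 FPKM in FW33K and is listed at 0 in all 3 SW33K libraries (limma adjusted p = 1.05e-04, and 2.11e-06 after scaling). It was also near 0 in the same population at lower salinity, with means of 0.0165 FPKM in FW00K and 0.111 FPKM in FW11K. No gene met the rule in the opposite direction.

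Among genes with a symbol that passed in both fits, 71 were higher in SW33K. *CYP2W1 (3 of 5)* (ENSGACG00000012012), a cytochrome P450, was at 0.539, 0.275 and 0.139 FPKM in FW33K and at 4.38, 79.6 and 79.1 FPKM in SW33K replicates 1, 2 and 3. The difference was 4.64 (standard error 0.84, limma adjusted p = 0.00831), and 5.94 without SW33K replicate 1. *UROC1* (ENSGACG00000000824), the urocanate hydratase of histidine breakdown, was at 4.23, 3.27 and 3.21 FPKM in FW33K and at 25.5, 148 and 143 FPKM in SW33K. Its difference was 4.19 (standard error 0.61, limma adjusted p = 0.00289) in deposited FPKM and 3.69 (limma adjusted p = 0.00195) after scaling. *PKLR* (ENSGACG00000011641), the pyruvate kinase of liver, kidney and red cells, was at 2.91, 2.53 and 2.10 FPKM in FW33K and at 20.8, 104 and 106 FPKM in SW33K, a difference of 4.16 (standard error 0.51, limma adjusted p = 0.0014). In these 3 genes SW33K replicate 1 lay above every FW33K library and below both other SW33K libraries.

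The same placing of SW33K replicate 1 was found in 114 of the 117 genes that were higher in SW33K in both fits. The mirror placing was found in 24 of the 58 that were higher in FW33K. None of these genes had overlap, so replicate 1 lay outside FW33K in all of them. In deposited FPKM its median difference from the other SW33K libraries was -0.79 over all tested genes. The share of all tested genes with this placing was not counted, so these counts only describe the called genes. A looser placing, between the FW33K mean and the mean of SW33K replicates 2 and 3, was counted in deposited FPKM. It held in 3413 of 4866 tested genes that were higher in replicates 2 and 3 by more than 1 log2 unit. Among genes lower by as much, it held in 189 of 362. *MAOA*, the monoamine oxidase that breaks down serotonin and noradrenaline, was at 4, 5.12 and 4.59 FPKM in FW33K and at 13.9, 98.0 and 94.8 FPKM in SW33K (difference 3.23). *HAO1*, the glycolate oxidase of peroxisomes, was at 5.47, 5.61 and 5.40 FPKM in FW33K and at 18.3, 106 and 103 FPKM in SW33K (difference 3.20). Its call was lost with the replicate number as a block in the fit, a term for deviations that same-numbered libraries share (limma adjusted p = 0.01002 in deposited FPKM and 0.0113 after scaling). *HRH2 (1 of 2)*, a histamine receptor, was at most 0.285 FPKM in FW33K and at 9.64, 41.1 and 41.0 FPKM in SW33K (difference 4.50). The lipid transporter *ABCA12* was at 0.0792 to 0.165 FPKM in FW33K and at 4.52, 10.5 and 10.5 FPKM in SW33K, a difference of 2.99 in deposited FPKM (limma adjusted p = 3.63e-04, and 6.10e-06 after scaling).

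The 12 largest differences towards SW33K among genes with a symbol are completed by genes at 3.80 to 2.76. They were *RASSF6*, which binds Ras proteins (3.80), *ANGPTL4 (2 of 2)*, a secreted inhibitor of lipoprotein lipase (3.27), and the transcription factor *KLF11 (2 of 2)* (2.94). *KIAA0319* (2.92) and the hyaluronidase *SPAM1* (2.76) were the last. Genes without a symbol are outside this ranking. One of them, ENSGACG00000018643, passed in both fits at 4.65. It was at most 0.294 FPKM in FW33K and at 25.7, 27.7 and 28.3 FPKM in SW33K. *ANGPTL4 (2 of 2)* did not pass with the replicate block (limma adjusted p = 0.0124 in deposited FPKM and 0.0145 after scaling). The lowest SW33K library of *SPAM1* was at 2.26 FPKM and the highest FW33K library at 0.0849 FPKM. All 24 genes named by size in both directions kept their direction under every alternative in which they were tested, and all passed both fits without SW33K replicate 1. The latter is little evidence, since that fit leaves SW33K with replicates 2 and 3, which were closely alike. Of all tested genes, 23.1% passed it in deposited FPKM and 5.91% after scaling. Only 4 of the 24 passed both fits without FW33K replicate 2 or without FW33K replicate 3, 7 without SW33K replicate 2 and 8 without SW33K replicate 3. Without FW33K replicate 1, 17 passed both, and 21 did with the replicate block. In fits of only the 6 libraries of the comparison, 2 of the 24 passed both (2 in deposited FPKM, 16 after scaling). With replicates 2 and 3 averaged, *HAS2* alone passed in deposited FPKM, and the limma adjusted p of the other 23 of them lay between 0.0481 and 0.233.

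**Figure D3:**
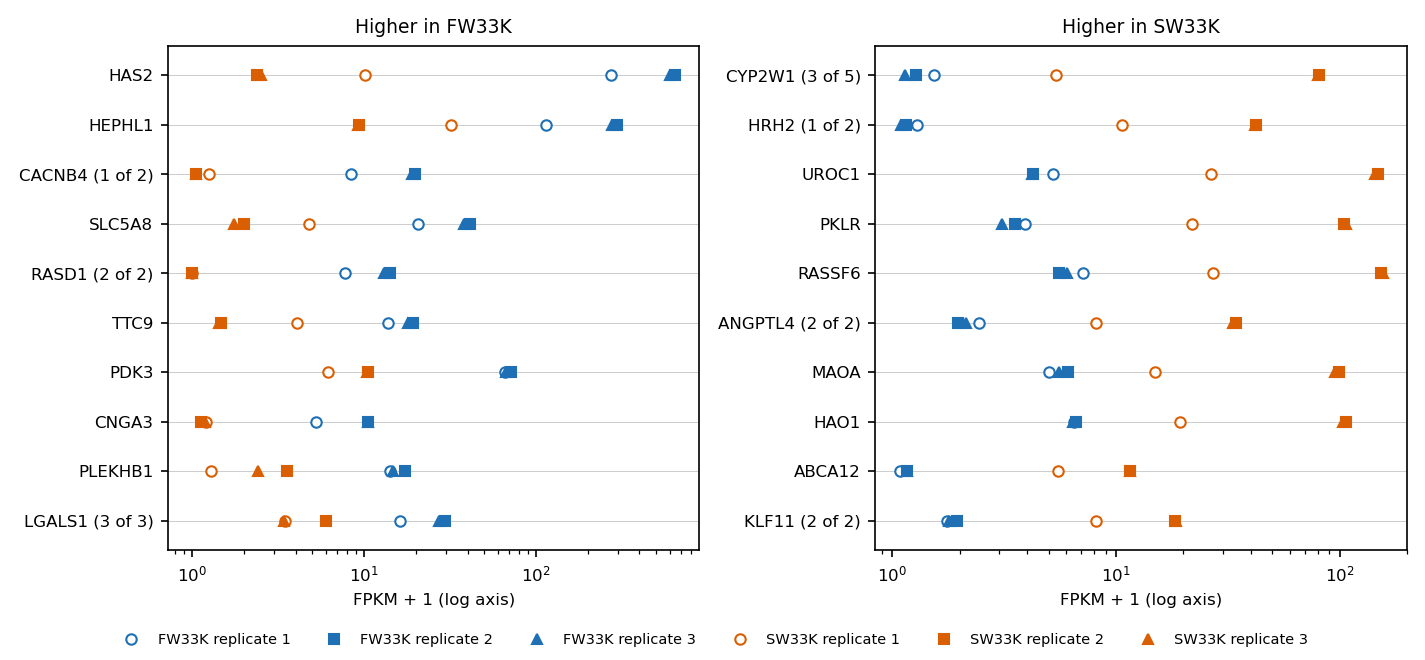
FPKM + 1 on a log axis in each of the 6 libraries for the 10 genes with the largest difference towards FW33K (left) and towards SW33K (right) among those named by size. Blue symbols are FW33K, orange symbols SW33K, open circles replicate 1, squares replicate 2 and triangles replicate 3. FW33K and SW33K do not overlap in any of these genes, by the rule that chose them. SW33K replicate 1 lies between FW33K and the other SW33K libraries in all 10 genes on the right. Its median difference from those libraries over all tested genes was -0.79 in deposited FPKM.

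Whether the 175 genes also set SW33K apart from FW fish at lower salinity depended on the scaling. The FW00K and FW11K means of *UROC1* were 345 and 135 FPKM, those of *PKLR* 106 and 51.2 FPKM, those of *CYP2W1 (3 of 5)* 317 and 80.9 FPKM and those of *HAO1* 88.5 and 48.3 FPKM, all far above FW33K. In deposited FPKM, all 3 SW33K libraries lay above all 9 FW libraries in 21 of the 117 genes higher in SW33K and below all 9 in 29 of the 58 genes higher in FW33K, against 234 and 430 of all 15503 tested genes. After scaling, these numbers were 76 and 22, against 1025 and 1312 of all tested genes. The genes named in the next paragraph were chosen among these after their values were seen.

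*EDN2*, an endothelin and so a vasoconstrictor peptide, was at 6.97, 7.51 and 6.11 FPKM in FW33K, between 2.37 and 5.41 FPKM in the other FW libraries, and at 0.410, 0.818 and 0.882 FPKM in SW33K (difference from FW33K -2.21, limma adjusted p = 0.00153). *IRAK3*, which dampens Toll-like receptor signalling, was at 28.6, 27.6 and 27.3 FPKM in FW33K, between 13.9 and 30.8 FPKM in the other FW libraries, and at 4.58, 6.57 and 5.68 FPKM in SW33K (difference -2.14). *LRRC16A (1 of 2)*, which acts on actin filaments, was at 5.08, 10.9 and 10.2 FPKM in FW33K, at 6.39 to 15.9 FPKM in the other FW libraries, and at 46.5, 71.6 and 70.1 FPKM in SW33K (difference 2.74, limma adjusted p = 0.00147). *TNPO2 (1 of 2)*, a nuclear import receptor, was at 4.92 to 5.55 FPKM in FW33K, at 13.3 to 16.8 FPKM in the other FW libraries, and at 21.3, 30.2 and 29.0 FPKM in SW33K. *PDK3* belongs to this set too, with 16.8 to 47.6 FPKM in FW00K and FW11K. Of the 31 genes with a symbol, 26 stood beyond all 9 FW libraries after scaling as well.

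Gene lists were described by their counts and medians beside those of all tested genes, whose medians were 0.47 unscaled and -0.02 scaled. Of the 1349 tested genes with a symbol, 80 were higher in SW33K and 38 higher in FW33K in deposited FPKM, with a median of 0.31, and 99 and 165 after scaling, with a median of -0.24. Of 18 tested genes of amino acid and one-carbon metabolism, 4 were higher in SW33K and 1 was higher in FW33K in deposited FPKM (median 1.51), and 3 and 3 after scaling (median 0.97). Members lay on both sides. Methionine synthase, *MTR* (ENSGACG00000015329), which turns homocysteine into methionine, was higher in SW33K. *MTR* was at 4.85, 8.30 and 7.71 FPKM in FW33K and at 18.1, 47.5 and 47.4 FPKM in SW33K (difference 2.19, limma adjusted p = 0.00554), above all FW libraries including FW00K and FW11K.

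*MAT2A (1 of 2)* (ENSGACG00000008374), which turns methionine into S-adenosylmethionine, the methyl donor of the cell, was lower in SW33K. It was at 788, 987 and 939 FPKM in FW33K and at 377, 255 and 246 FPKM in SW33K, a difference of -1.65 (standard error 0.30, limma adjusted p = 0.00825) in deposited FPKM and -2.26 (limma adjusted p = 0.00576) after scaling. Its means were 82.2 FPKM in FW00K and 105 FPKM in FW11K, below both groups at 33 g/L. *GNMT*, which spends S-adenosylmethionine on glycine, was at 205, 334 and 305 FPKM in FW33K and at 117, 103 and 97.8 FPKM in SW33K, and passed after scaling alone (difference -1.99, limma adjusted p = 0.00826). *ARG2*, a mitochondrial arginase, likewise passed after scaling alone (difference -1.64, limma adjusted p = 8.39e-04). *GLDC*, the glycine decarboxylase, passed in deposited FPKM alone (difference 1.38, limma adjusted p = 0.00788).

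Of 10 tested extracellular matrix genes, 1 was higher in SW33K and 2 were higher in FW33K in deposited FPKM, and 2 and 4 after scaling (median -1.15). Besides *HAS2*, the matrix protein periostin, *POSTN (2 of 2)*, was higher in FW33K in both fits, at 5.59, 11.7 and 10.6 FPKM against 1.29, 2.32 and 2.47 FPKM in SW33K (difference -1.73, limma adjusted p = 0.00813). *PLOD2*, which hydroxylates lysine in collagen, was at 1.79, 1.36 and 1.86 FPKM in FW33K and at 4.52, 22.6 and 23.8 FPKM in SW33K (difference 2.47, limma adjusted p = 0.00837, and 0.0112 with the replicate block). The laminin chain *LAMA3* was higher in SW33K after scaling alone (difference 1.20, limma adjusted p = 0.00163), and with the replicate block in deposited FPKM as well (limma adjusted p = 0.00696).

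Enzymes that build glycans and mitochondrial complexes also had members on both sides. Both copies of *GCNT3*, which branches mucin-type glycans, were higher in SW33K in both fits, at 14.5, 23.9 and 29.9 FPKM for *GCNT3 (1 of 2)* against 5.38, 6.39 and 6.34 FPKM in FW33K (difference 1.70, limma adjusted p = 0.00556). Without SW33K replicate 1, neither copy passed after scaling (limma adjusted p = 0.0106 for *GCNT3 (1 of 2)* and 0.0167 for *GCNT3 (2 of 2)*). *B3GNT3* and *GALNT3*, of the same pathway, were higher in FW33K after scaling alone (differences -2.33 and -1.94). With the replicate block, *B3GNT3* passed in deposited FPKM as well (limma adjusted p = 0.00348). These 4 were the ones that passed after scaling among 18 tested members, whose scaled median was -0.63. Of 6 tested genes of oxidative phosphorylation, *ATP5A1 (2 of 2)*, a subunit of ATP synthase, was higher in SW33K in both fits, at 20.6, 42.5 and 39.4 FPKM against 5.24, 7.11 and 6.51 FPKM (difference 2.22, limma adjusted p = 0.00251). *COX6A2* was higher in SW33K (scaled difference 2.07), and *COX6B1* and *NDUFA4 (2 of 2)* higher in FW33K (scaled differences -2.49 and -2.06), after scaling alone. With the replicate block, *COX6B1* passed in deposited FPKM as well (limma adjusted p = 0.00428).

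Of 12 tested genes of lipid and xenobiotic metabolism, *CYP2W1 (3 of 5)* passed in both fits. After scaling, *CPT1B*, which brings fatty acids into mitochondria, joined it on the SW33K side (difference 1.35), and *APOE (2 of 2)*, *CYP4F2* and *CYP1B1* were higher in FW33K (differences -2.65, -2.29 and -1.32). With the replicate block, *APOE (2 of 2)* did not pass after scaling (limma adjusted p = 0.0128) and *CYP4F2* passed in deposited FPKM as well (limma adjusted p = 0.00542). Of 5 tested genes of sugar metabolism, *PKLR* passed in both fits.

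Transport genes of the nephron showed higher medians in SW33K and few calls. Of 10 tested proximal tubule genes, 0 passed in deposited FPKM (median 1.81) and 1 passed after scaling (median 1.52). The latter was *SLC34A1* (ENSGACG00000018036), the sodium-phosphate cotransporter, at 3.10, 5.03 and 4.95 FPKM in FW33K and at 10.3, 53.5 and 49.8 FPKM in SW33K (scaled difference 2.06, limma adjusted p = 0.00517), and it passed in deposited FPKM with the replicate block (limma adjusted p = 0.00907). Without SW33K replicate 1, 5 of these 10 genes passed after scaling, all higher in SW33K. So were 2.36% of all tested genes in that fit, and 126 of the 1349 with a symbol. Among the 5 was *MIOX*, the oxygenase that breaks down myo-inositol, at 0.0812, 0.0993 and 0.167 FPKM in FW33K and at 0.250, 5.17 and 4.98 FPKM in SW33K. *SLC3A1*, *AMN* and *MEP1B (2 of 2)* lay on the FW33K side in the scaled fit of all libraries, without a call (differences -1.48, -0.57 and -0.20). Of 15 tested genes of sodium and chloride handling in the distal tubule, 0 passed on either scale (medians 0.99 and 0.40). Of the 6 tested genes of glomerulus and nephron identity, 0 passed on either scale (medians 1.15 and 0.71). Without SW33K replicate 1, 8 of the 15 distal tubule genes and 6 of the 6 glomerulus genes passed in deposited FPKM. All of these were higher in SW33K, as were 22.1% of all tested genes in that fit. After scaling, 0 genes of either list passed without SW33K replicate 1.

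The magnesium, calcium and sulphate list had 6 tested members, 4 of them copies of the magnesium transporter *CNNM3* with nearly equal values, and 0 passed on either scale (medians -0.05 and -0.67). Of the 7 tested members of the renin-angiotensin, natriuretic and vasoactive list, 0 passed on either scale. *NPR1 (3 of 3)*, a receptor for natriuretic peptides, was at 3.24, 3.88 and 3.15 FPKM in FW33K and at 4.89, 33.5 and 33.4 FPKM in SW33K (difference 2.12, limma adjusted p = 0.029), and *AVPR2 (1 of 2)*, a vasopressin receptor, at 16.6, 21.4 and 21.7 FPKM in FW33K and at 9.33, 6.17 and 5.35 FPKM in SW33K (difference -1.42, limma adjusted p = 0.0371). The peptidases *ACE* and *ENPEP*, which make and break angiotensins, differed by 1.19 and 0.90 (limma adjusted p = 0.113 and 0.372), and *ACE* overlapped between the groups because SW33K replicate 1 was at 7.25 FPKM, among the FW33K libraries at 6.55 to 8.09 FPKM.

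Of 80 tested genes of the endoplasmic reticulum and secretory pathway, 0 passed in deposited FPKM (median 0.24) and 1 passed after scaling (median -0.38), *FKBP11*, higher in FW33K (scaled difference -1.75). After scaling, 2 passed with the replicate block. In deposited FPKM, limma called none of the members of the cell cycle, steroid hormone, osmolyte, complement, erythroid, granulocyte and lymphocyte lists either. Of the osmolyte list, *MAP3K15* was lower in SW33K after scaling (difference -1.34, limma adjusted p = 0.00746), and did not pass with the replicate block (limma adjusted p = 0.0145).

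Genes of immune cells lay mostly on the FW33K side once the libraries were scaled. Of 8 tested granulocyte and macrophage markers, 0 passed in deposited FPKM (median -1.07) and 5 were higher in FW33K after scaling (median -1.65). They were *CYBB*, *CYBA* and *NCF1*, parts of the oxidase that makes superoxide in phagocytes, *ALOX5*, which makes leukotrienes, and *PTAFR*, the receptor of platelet-activating factor. With the replicate block, *ALOX5* passed in deposited FPKM too (limma adjusted p = 0.00964). *CYBB* was at 51.7, 93.2 and 86.2 FPKM in FW33K and at 21.4, 29.3 and 28.8 FPKM in SW33K, with no overlap (scaled difference -2.09, limma adjusted p = 6.67e-04). The summed scaled level of the 8 markers was 347 to 382 in FW33K and 117 to 141 in SW33K. Fewer cells of a type and less RNA per cell cannot be told apart in whole kidney. Of 6 tested lymphocyte markers, 2 were higher in FW33K after scaling, among them the phosphatase *PTPN7* (difference -1.27, limma adjusted p = 0.00188), and their summed level lay between 141 and 156 in FW33K and between 75.8 and 91.7 in SW33K. The fit with the replicate block called 1 lymphocyte marker higher in FW33K and 1 higher in SW33K after scaling. The summed level of 6 erythroid markers was 56.7, 242 and 256 in FW33K and 70.5 to 76.5 in SW33K, so FW33K replicate 1 lay below every SW33K library and the other 2 above. The part of these cell markers in the genes higher in FW33K was not tested.

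In the antigen presentation list, with 12 tested genes, the scaling decided the calls. Its median lay on the SW33K side on both scales, at 1.40 in deposited FPKM and 0.81 after scaling. *TAPBP (6 of 7)* and *TAPBP (3 of 7)*, copies of the protein that loads peptides on MHC class I, were at 21.9 to 29.3 and 24.1 to 35.9 FPKM in SW33K against 5.80 to 7.92 and 6.76 to 9.07 FPKM in FW33K. Both passed in deposited FPKM (difference 1.80, limma adjusted p = 0.00834 and 0.00825) and not after scaling (differences 1.25 and 1.24, limma adjusted p = 0.0174 and 0.0172). They are near copies with like values and may not be independent. *EIF2AK2 (2 of 2)*, a kinase activated by double-stranded RNA, was higher in FW33K after scaling alone (difference -1.82, limma adjusted p = 0.00287).

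**Figure D4:**
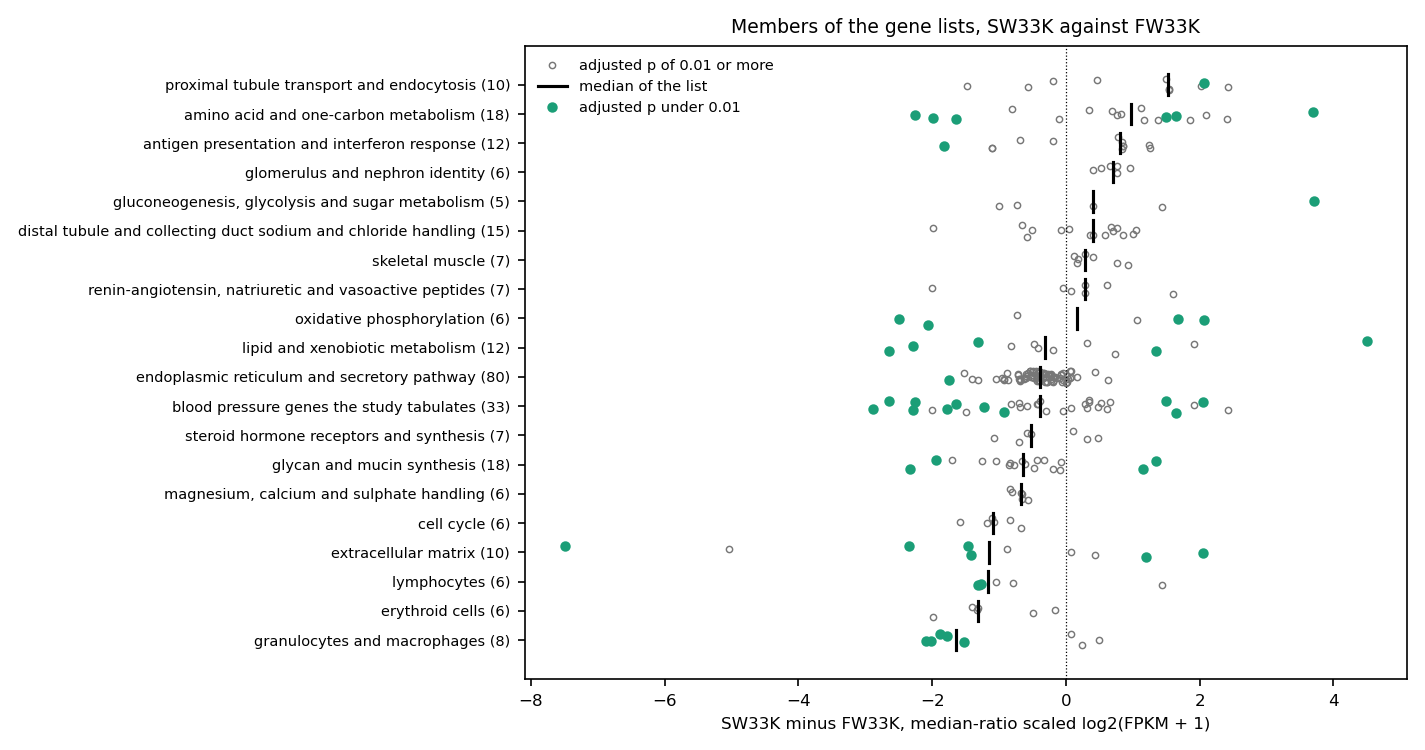
Scaled log2(FPKM + 1) difference, SW33K minus FW33K, of each tested member of the 20 gene lists with at least 5 tested members (x axis, log2 units; number of members in brackets). Filled points passed an adjusted p under 0.01, open points did not, and black bars are list medians. Granulocyte and macrophage markers lie lowest, with a median of -1.65, and proximal tubule genes highest, with a median of 1.52, while the median of all tested genes was -0.02.

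The study tabulates 33 genes linked to blood pressure, which it chose on these samples, so their calls are not independent evidence. Of the 33, 3 were higher in SW33K and 1 was higher in FW33K in deposited FPKM, and 3 and 8 after scaling. With the replicate block, 2 and 3 passed in deposited FPKM, and 3 and 6 after scaling. Among those that passed in both fits were *MTR*, *PLOD2*, which did not pass in deposited FPKM with the block (limma adjusted p = 0.0112), and *MAT2A (1 of 2)*. *CLCN6*, an endosomal chloride-proton exchanger, was at 5.23, 11.5 and 10.2 FPKM in FW33K and at 6.73, 18.2 and 19.2 FPKM in SW33K, and its groups overlapped (difference 0.59, limma adjusted p = 0.293, and 0.02 after scaling). *PLOD1*, a lysyl hydroxylase, was at 3.37, 9.17 and 9.17 FPKM in FW33K and at 11.6, 15.4 and 15.1 FPKM in SW33K, without overlap (difference 0.96, limma adjusted p = 0.0751, and 0.43 after scaling).

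SW33K replicate 1 stood apart from the other SW33K fish, and by some measures, not all, it lay towards FW33K. In deposited FPKM it differed from the mean of replicates 2 and 3 by more than 1 unit of log2(FPKM + 1) in 5384 of 15503 genes (34.7%). Of these, 5221 were lower, whereas replicates 2 and 3 differed by as much in 239 genes (1.54%). With 0.1 added in place of 1, the count for replicate 1 was 7399 genes (47.7%). Its median difference over all tested genes was -0.79. After scaling, the median was 0.04 and 1468 genes (9.47%) differed by more than 1 log2 unit, 722 higher and 746 lower. FW33K replicate 1 differed from its own replicates 2 and 3 in 2218 genes (14.3%) in deposited FPKM and in 1570 genes (10.1%) after scaling. Across all tested genes, SW33K replicate 1 was still closer to SW33K replicates 2 and 3 (Pearson's r of 0.933 and 0.940) than to the FW33K libraries (0.913 to 0.923), and SW33K replicates 2 and 3 were at 0.883 to 0.910 to FW33K. The median absolute log2 ratio after scaling, over 635 genes with at least 100 FPKM, placed them otherwise. From FW33K replicates 2 and 3, SW33K replicate 1 was at 0.493 and 0.481, and SW33K replicates 2 and 3 were nearer, at 0.384 to 0.424. From FW33K replicate 1, SW33K replicates 1, 2 and 3 were at 0.511, 0.558 and 0.512. Scaling factors of the libraries were 0.468, 0.697 and 0.642 in FW33K, and 0.568, 1.17 and 1.14 in SW33K, so SW33K replicate 1 was rescaled like an FW33K library.

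The genes that set SW33K replicates 2 and 3 off from FW33K were compared with replicate 1. After scaling, 145 genes were higher in replicates 2 and 3 than the FW33K mean by more than 2 log2 units, and replicate 1 lay between in 114 of them, at a median position of 0.48 where FW33K is 0 and replicates 2 and 3 are 1. For the 283 genes that were lower by more than 2 log2 units, replicate 1 lay between in 226, at a median position of 0.58. In deposited FPKM the median position was 0.33 over 502 higher genes and 0.74 over 97 lower genes. Since replicates 2 and 3 chose these genes, the positions are a description and were not tested.

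Among genes with a symbol, a mean of at least 10 FPKM in SW33K and replicates 2 and 3 within 0.5 log2 units of each other, the largest deficit of replicate 1 was in *AGXT2 (2 of 2)*, a mitochondrial aminotransferase. It was at 2.76, 86.4 and 84.1 FPKM in SW33K and at 0.804, 5.78 and 4.96 FPKM in FW33K, so replicate 1 lay among the FW33K libraries, 4.52 log2 units below replicates 2 and 3. *CYP2W1 (3 of 5)* followed at -3.90. *UPP2*, a uridine phosphorylase, was at 4.28, 61.6 and 62.1 FPKM in SW33K and at 17.5, 30.3 and 28.0 FPKM in FW33K, so that replicate 1 lay below and replicates 2 and 3 above every FW33K library. *SLC16A4*, of the monocarboxylate transporter family, was at 2.86, 45.2 and 44.2 FPKM in SW33K and under 0.1 FPKM in all of FW33K. It passed after scaling (difference 4.26, limma adjusted p = 0.00465, and 0.0124 with the replicate block) and not in deposited FPKM (difference 4.24, limma adjusted p = 0.0108). *IYD*, which recovers iodide from iodinated tyrosine, was at 3.77, 53.7 and 52.3 FPKM in SW33K and at 4.18 to 7.23 FPKM in FW33K.

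*GAPDH* (ENSGACG00000010219), the glycolytic enzyme that the study took as reference gene for quantitative PCR, was among them. It was at 48.7, 539 and 538 FPKM in SW33K and at 224, 291 and 274 FPKM in FW33K. Replicate 1 was 3.44 log2 units below replicates 2 and 3 in deposited FPKM and 2.43 below them after scaling. Between the groups, *GAPDH* differed by -0.11 (limma adjusted p = 0.953), and by 1.04 without SW33K replicate 1 (limma adjusted p = 0.291).

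The largest excess of replicate 1 was in *PI16*, a secreted peptidase inhibitor, at 87.5, 1.42 and 2.12 FPKM in SW33K and at 203, 181 and 194 FPKM in FW33K. Its difference between the groups was -4.47 (standard error 0.99, limma adjusted p = 0.0204) and -6.14 without replicate 1. *BEST3*, a bestrophin chloride channel, was at 77.3, 8.01 and 8.49 FPKM in SW33K and at 108, 229 and 225 FPKM in FW33K. *SLC25A48*, a mitochondrial carrier, was at 42.2, 6.11 and 6.81 FPKM in SW33K and at 64.7 to 88.6 FPKM in FW33K. Without replicate 1, *BEST3* and *SLC25A48* differed between the groups by -4.27 and -3.41 in deposited FPKM. These genes were chosen for alike replicates 2 and 3 and a distant replicate 1. Tests without replicate 1 are therefore no evidence for them, and their p-values are not given. *F3 (2 of 2)*, the tissue factor that starts clotting, was at 33.3, 6.77 and 8.25 FPKM in SW33K and at 33.6, 114 and 103 FPKM in FW33K, so that both replicates 1 were alike. *HN1 (1 of 2)* was at 104 FPKM in replicate 1, above all other libraries of both groups, and at 12.2 and 12.5 FPKM in replicates 2 and 3.

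The most abundant genes of the groups, the 3 highest of each, were 4 genes without a symbol here, and in 3 of them SW33K replicate 1 lay nearer to FW33K than SW33K replicates 2 and 3 did. ENSGACG00000019061 was at 62487, 42149 and 44353 FPKM in FW33K, at 50698 FPKM in SW33K replicate 1 and at 4952 and 5463 FPKM in SW33K replicates 2 and 3. ENSGACG00000019037 was at 57522, 34929 and 41878 FPKM in FW33K, at 46227 FPKM in SW33K replicate 1 and at 4177 and 5460 FPKM in replicates 2 and 3. The means of both were 830 and 750 FPKM in FW00K and 278 and 276 FPKM in FW11K. ENSGACG00000019053 was at 30038, 14277 and 14606 FPKM in FW33K and at 5224, 290 and 303 FPKM in SW33K. In ENSGACG00000002182, at 5162 to 5912 FPKM in FW33K and 9269 to 11015 FPKM in SW33K, replicate 1 lay within its group. None of the first 3 passed the threshold between the groups on either scale (limma adjusted p = 0.0254 to 0.275). FPKM is a share of the library, so an abundant gene lowers the value of every other gene of that library, and the part of these genes in the shift of SW33K replicate 1 was not tested.

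**Figure D5:**
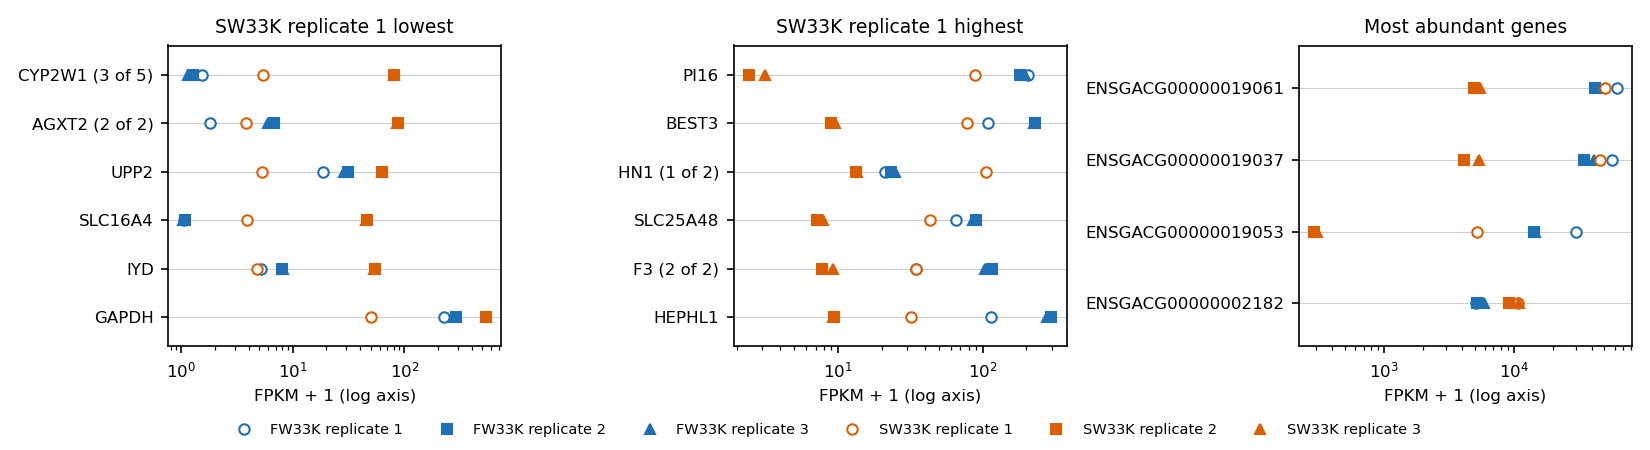
FPKM + 1 on a log axis in each of the 6 libraries for the 6 genes with the largest deficit of SW33K replicate 1 (left), the 6 with the largest excess (middle) and the most abundant genes (right). Blue symbols are FW33K, orange symbols SW33K, open circles replicate 1, squares replicate 2 and triangles replicate 3. SW33K replicate 1 lies with FW33K for ENSGACG00000019061, at 50698 FPKM against 4952 and 5463 FPKM in the other SW33K libraries, and far from both other SW33K libraries in all 12 genes of the first 2 panels.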

How the data were processed

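Kidney poly-A RNA of 12 fish was sequenced on an Illumina HiSeq. The authors removed reads with low-quality bases, trimmed the rest, aligned them with TopHat2 2.0.3 to the BROADS1 genome with known polymorphic sites masked, allowing more mismatches for SW than for FW fish, and deposited the FPKM that Cufflinks 2.0.2 estimated per Ensembl gene. The deposited FPKM hold no counts per gene, so no count model was used. Each group mean rests on 3 libraries, while the spread was estimated over all 12 libraries. With only the 6 libraries of the comparison in the fit, 7 genes passed in deposited FPKM and 450 after scaling. The reads per library that the study lists were not used in the fits.

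FPKM were tested as log2(FPKM + 1) with limma 3.58.1 in R 4.3.3 (trended empirical Bayes, one mean per treatment, 12 libraries in one fit, 15503 genes averaging 1 FPKM or more), as deposited and after division by median-ratio factors from the 16530 genes above 0 in every library. The comparison is SW33K minus FW33K, at a Benjamini-Hochberg adjusted p under 0.01. Descriptions were computed in Python 3.11.15 (numpy 2.4.6, pandas 2.3.3) and drawn with matplotlib 3.10.9. The deposited-scale fit was also run on simulated data with independent noise in each library. That setting does not hold the likeness seen between some replicates, so it says nothing on how that likeness affects the calls.

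Replicate numbers were taken from the titles. Deviations of same-numbered FW33K and SW33K libraries from their group means correlated across genes at 0.14, 0.35 and 0.18 (replicates 1, 2 and 3), and those of different numbers at -0.18 to -0.05. After scaling, the same-numbered correlations were 0.10, 0.32 and 0.14, and the others -0.15 to -0.02. A fit with the number as a block was therefore run as an alternative, although no label names a shared batch. The main fits have no block, so their p-values take no account of such pairing. Values of the fit with the block are given where they change a call.

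Genes named are the 12 with a symbol and the largest difference in each direction among those that passed in both fits without overlap, those under 0.1 FPKM in one group and at least 5 FPKM in the other, the 6 with the largest excess and the 6 with the largest deficit of SW33K replicate 1, up to 4 members of each list that passed, the 3 most abundant genes of each group, genes that the study discusses for these groups, and others where the text says so or that show a list or marker. Symbols came from the study's supplementary list and figures, since the reference gene table holds no Ensembl identifiers. Genome positions and sequences are therefore not given. Some genes that these rules name are not reported here, while counts and medians include them. The members and the gene lists were chosen with earlier results of these data known. Lists of liver, endothelium, ovary, interrenal, pancreas, ribosomal protein and marine-freshwater divergence genes had 1 to 3 tested members each, and of these *CPA1* alone passed, after scaling. Alternatives were a pseudocount of 0.1, no filter, a mean of at least 5 FPKM, 6 libraries in the fit, other scalings, the replicate block, replicates 2 and 3 averaged, an adjusted p under 0.05 and each library left out.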

Additional observations from a re-analysis of the deposited data

How the results depend on the processing

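In deposited FPKM, 221 genes differed. The count was 1559 at an adjusted p under 0.05, 662 after median-ratio scaling (237 higher in SW33K, 425 higher in FW33K), 500 under quantile normalization (199 and 301), 7 with only the 6 libraries of the comparison, 2 with replicates 2 and 3 averaged, and 6 to 3584 without single libraries (6 without FW33K replicate 3, 3584 without SW33K replicate 1). It stayed within 1.5 times with a pseudocount of 0.1, no filter and a mean of at least 5 FPKM. In scaled FPKM, 662 genes differed, 1996 at an adjusted p under 0.05, 0 with replicates 2 and 3 averaged, and 183 to 917 without single libraries. Genes without overlap numbered 4855, 6356 with scaling, and 4990 to 12480 without single libraries (12480 without SW33K replicate 1). SW33K replicate 1 differed by more than 1 unit of log2(FPKM + 1) from replicates 2 and 3 in 5384 genes. The count was 1468 with scaling and 7399 with a pseudocount of 0.1. With fewer libraries the fit has fewer samples. The cause of the other shifts was not tested.

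With the replicate number as a block, 267 genes differed in deposited FPKM and 684 in scaled FPKM, and 147 of the 175 genes that passed in both fits did so again. Among the 24 genes named by size, 21 passed both fits with the block. It changed no other call of a gene named in the text than those given beside the gene.

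Over 1082 refits of the 73 named genes, 758 kept their direction and side of the threshold, 220 fell short of it, 94 newly passed, and 10 changed sign. *UPP2*, at 0.11 with no call, was at -0.53 after median-ratio scaling, at -0.35 under quantile normalization, at -0.37 where replicates 2 and 3 were averaged, and at -0.49 to 1.30 without single libraries (-0.13 without FW33K replicate 1, -0.49 without SW33K replicate 2 or 3). *GAPDH*, at -0.11, was at -0.68 to 1.04 without single libraries (1.04 without SW33K replicate 1). *HN1 (1 of 2)*, at 0.20, was at -0.38 after median-ratio scaling, -0.26 under quantile normalization and -0.79 to 0.71 without single libraries (-0.79 without SW33K replicate 1).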
